A study of Caenorhabditis elegans with 4 samples.

Results

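The cytosolic ribosomal protein genes of Caenorhabditis elegans were examined for occupancy by UNC-39, a SIX-family homeodomain transcription factor, in peak lists from chromatin immunoprecipitation followed by sequencing (ChIP-seq). The genes were all nuclear protein-coding genes of the WBcel235 annotation whose names start with rpl-, rps- or rla-, which gave 81 of 19973 genes: 50 of the large subunit, 3 of them the stalk proteins named rla-, and 31 of the small subunit. The samples were 4 biological replicates of 1 group, whole L3 larvae of mixed sex from strain OP186, with the genotype unc-119(ed3) III; wgIs186. In this strain the wgIs186 insertion supplies UNC-39 with a C-terminal GFP-FLAG tag, as a tagged copy made from a transgene. Whole animals were used, and the cells in which a peak arose cannot be told apart. The antibody entry in the labels reads unc-39, and the target it recognised, tag or protein, was not given in the sources used here. Whether the occupancy is that of the tagged copy alone is thus unknown. With 1 group there was no comparison between conditions and no test between groups.

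Each ribosome is built from a small subunit, which reads the messenger RNA, and a large subunit, which joins amino acids into protein, and each subunit holds ribosomal RNA and a fixed set of ribosomal proteins. Nearly all of the proteins are needed in equal amounts, and in animals their genes are among the most highly transcribed of all, in nearly every cell. Many C. elegans messenger RNAs, those for ribosomal proteins among them, are trans-spliced: a short leader RNA replaces the first stretch of the transcript, so that the annotated start is often the splice site and not the place where transcription began.

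Of the deposited lists, 6 on the ce11 assembly were used. A relaxed list, which by its deposited description holds peaks together with background, was given for each replicate (30000 peaks in replicate 1, 30000 in replicate 2, 13225 in replicate 3 and 29529 in replicate 4) and for the pooled replicates (12797 peaks). A thresholded list held 110 peaks, 86 of them nuclear, and its peaks are called reproducible here. The strongest nuclear peak of the pooled list ranked 24, behind peaks on the mitochondrial genome. A promoter peak was one with its summit from 1000 bp upstream to 200 bp downstream of a transcript start of the gene, and each gene was described by its strongest promoter peak, ranked by the authors' signal within 1 list. The percentile of a peak is the share of its list at or below its rank, so that 100 is the strongest. Ranks in lists of unequal length give a peak's place in its own list and no change between lists. Read depth is unknown, since the files hold peaks without read counts.

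A reproducible promoter peak was found at 6 ribosomal protein genes, rpl-15, rpl-3, rps-1, rpl-35, rpl-20 and rpl-11.2 (7.41% of the 81 genes, against 0.23% of all protein-coding genes). These 6 have the highest ranks of the ribosomal protein genes in the pooled list, so the sequence under each is shown. Both lists were made from the same replicates, so this is not a separate observation, and the order within single replicates differed. Each line holds the 101 bases centred on the pooled summit, read 5′ to 3′ on the strand of the gene from the RefSeq WBcel235 sequence. Capitals mark 6-letter words on either strand. One is TACGGT, which reads ACCGTA where it lies on the other strand. The next is ACACGC, with GCGTGT as its reverse complement. The last 2 are ACGCAG, which becomes CTGCGT, and GTGTAT, which becomes ATACAC.
rpl-15: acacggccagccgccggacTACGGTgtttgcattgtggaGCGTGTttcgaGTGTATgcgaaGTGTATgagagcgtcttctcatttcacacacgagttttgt
rpl-3: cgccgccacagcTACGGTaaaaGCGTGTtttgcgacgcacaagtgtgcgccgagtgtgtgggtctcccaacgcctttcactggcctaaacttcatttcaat
rps-1: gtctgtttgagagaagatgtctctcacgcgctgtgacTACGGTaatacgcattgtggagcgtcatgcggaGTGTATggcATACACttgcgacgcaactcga
rpl-35: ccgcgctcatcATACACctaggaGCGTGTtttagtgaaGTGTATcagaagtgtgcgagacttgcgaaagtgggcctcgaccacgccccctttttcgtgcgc
rpl-20: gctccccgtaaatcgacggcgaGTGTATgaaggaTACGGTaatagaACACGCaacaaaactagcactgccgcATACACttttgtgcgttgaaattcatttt
rpl-11.2: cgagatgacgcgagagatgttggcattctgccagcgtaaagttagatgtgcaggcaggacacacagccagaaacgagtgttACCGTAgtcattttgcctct
The windows lie at chrIV:654865-654965 (minus strand) for rpl-15, chrIII:3867555-3867655 (plus strand) for rpl-3, chrIII:4475598-4475698 (plus strand) for rps-1, chrIII:7854650-7854750 (plus strand) for rpl-35, chrIV:4750015-4750115 (minus strand) for rpl-20 and chrX:2242946-2243046 (minus strand) for rpl-11.2 on ce11.

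TACGGT or its reverse complement was present in 5 of these 6 windows, all but that of rpl-35. In rpl-15, rpl-3, rps-1 and rpl-20 it read TACGGT on the strand of the gene, 370, 287, 283 and 303 bp upstream of the start, and in each of these its first base lay upstream of the summit. In rpl-11.2 the word was on the other strand, 347 bp upstream of the start. ACACGC or GCGTGT was in 4 windows, those of rpl-15, rpl-3, rpl-35 and rpl-20, and in rpl-15, rpl-3 and rpl-20 it followed TACGGT, at 350, 277 and 291 bp upstream of the start. GTGTAT or ATACAC was also in 4 windows, those of rpl-15, rps-1, rpl-35 and rpl-20, and occurred 2 times in each of them.

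Reading the values member by member, rpl-15, a large subunit gene, ranked 37 in the pooled list and 56, 2507, 128 and 65 in replicates 1 to 4. Its summit was 339 bp upstream of the start in the pooled list and 352, 261, 341 and 325 bp upstream in the replicates. The peak was thus within the strongest 1000 of 3 replicates and lower in replicate 2, while all 4 summits fell between 261 and 352 bp upstream. rpl-3, whose protein reaches towards the peptidyl transferase centre, ranked 38 in the pooled list and 121, 5368, 32 and 50 in replicates 1 to 4, with summits 259, 233, 278 and 333 bp upstream. rpl-35, which encodes a protein beside the exit of the peptide tunnel, ranked 50 in the pooled list and 105, 8128, 221 and 116 in the replicates, with summits 401, 445, 464 and 411 bp upstream. These 3 genes, rpl-15, rpl-3 and rpl-35, were the only ribosomal protein genes with a promoter peak among the 1000 strongest of at least 3 replicate lists (3.70%, against 0.245% of all genes), and for each of them replicate 2 was the replicate outside.

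The other 3 genes varied more between replicates. rps-1, which encodes a small subunit protein, ranked 45 in the pooled list and 137, 28705, 1174 and 27 in replicates 1 to 4. Its summit lay 264, 307 and 247 bp upstream in replicates 1, 2 and 4 and 62 bp upstream in replicate 3. In replicate 2 this peak stood at percentile 4.32, close to the end of the list. rpl-20, a large subunit gene, ranked 63 in the pooled list and 9637, 49 and 35 in replicates 1, 3 and 4, and had no promoter peak in replicate 2. Where it was listed, its summit kept within 298 to 282 bp upstream. rpl-11.2, whose protein joins the large subunit together with the 5S ribosomal RNA, ranked 85 in the pooled list and 6791, 4143, 453 and 280 in replicates 1 to 4, with summits 417, 421 and 399 bp upstream in replicates 2 to 4 and 124 bp upstream in replicate 1.

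The pooled peaks at rpl-3, rpl-35 and rpl-11.2 lay in the promoter window of no other protein-coding gene. Those at rpl-15, rps-1 and rpl-20 also lay in the window of a neighbour, K11H12.8, ifet-1 and Y17G9B.5. ifet-1 encodes a translational repressor. Which of the genes a shared peak belongs to cannot be told from its position.

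**Figure D1:**
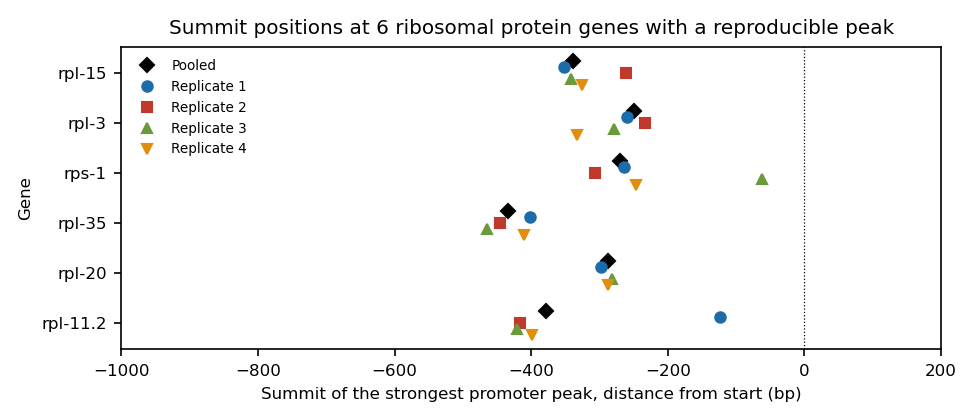
Summit of the strongest promoter peak of the 6 ribosomal protein genes with a reproducible peak, in bp from the nearest annotated start (x axis, negative is upstream), in the pooled list (diamonds) and in each replicate. Most summits of a gene lie close together, with replicate 3 at rps-1 (62 bp upstream) and replicate 1 at rpl-11.2 (124 bp upstream) standing nearer to the start, and rpl-20 has no point for replicate 2.

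The members of the family are joined by a feature at the start itself. In 5′ to 3′ order on the gene's strand, with 20 bases before the annotated start and 10 from it onward, the same 6 genes read as follows, the capitals marking TTTCAG, or AG alone, directly before the start, the letters of a C. elegans splice acceptor.
rpl-15: tctaaccttttttcTTTCAGaaaacatggg
rpl-3: gtaaaattaatattTTTCAGggtacaacaa
rps-1: ttatgtattcctatTTTCAGacacagcttg
rpl-35: taagcaatctcattattcAGggttaccaca
rpl-20: atcatatttttgttTTTCAGggttaaaaca
rpl-11.2: tgttatttacctctttacAGacatgggtga
TTTCAG ended at the most upstream annotated start in 44 of the 81 ribosomal protein genes (54.3%) and in 16.7% of all protein-coding genes, and AG in 75 of 81 (92.6%) and 36.1%. Of the 6 genes above, 4 had TTTCAG and the other 2 had AG. Distances to the start given here are therefore distances to the annotated splice site in most of these genes, and the place of transcription initiation was not measured.

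The relaxed lists put a promoter peak at a wider set of the family. In the pooled list it was 45 of 81 (55.6%), beside 19.1% of all protein-coding genes. The relaxed list holds many weak peaks: among its 1000 strongest nuclear peaks the count was 16 genes (19.8%, all genes 2.22%), and among peaks with a q-value past 0.05 it was 3 (3.70%, all genes 0.145%). In the replicate lists it was 51 in replicate 1 (63.0%, all genes 35.8%), 38 in replicate 2 (46.9%, all genes 36.6%), 45 in replicate 3 (55.6%, all genes 21.3%) and 68 in replicate 4 (84.0%, all genes 38.8%). The pooled list and replicates 1, 3 and 4 had the family well above all genes, whereas in replicate 2 the shares lay closest together. The replicate lists are unlike in strength: a q-value past 0.05 was held by 131 of 30000 peaks in replicate 1 and 11 of 30000 in replicate 2. In replicate 3 it was all 13225, and in replicate 4 it was 7750 of 29529. Counts that use replicates 1 and 2 thus rest almost wholly on peaks not past that value. The 81 genes are the whole family and some share a peak, so they are not independent replicates, and no test over them was made. A promoter peak in all 4 replicates was present at 15 genes (18.5%, all genes 4.24%), which were rpl-1, rpl-2, rpl-3, rpl-11.2, rpl-12, rpl-15, rpl-35, rpl-41.2, rps-1, rps-7, rps-12, rps-22, rps-23, rps-24 and rps-28. None of the replicates had one at 3 genes, rpl-10, rpl-7A and rps-2 (3.70%, all genes 28%). Without replicate 2, 25 genes had a promoter peak in all of the remaining 3 (30.9%, all genes 6.63%). The pooled and thresholded lists include replicate 2 and cannot be had without it.

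**Figure D2:**
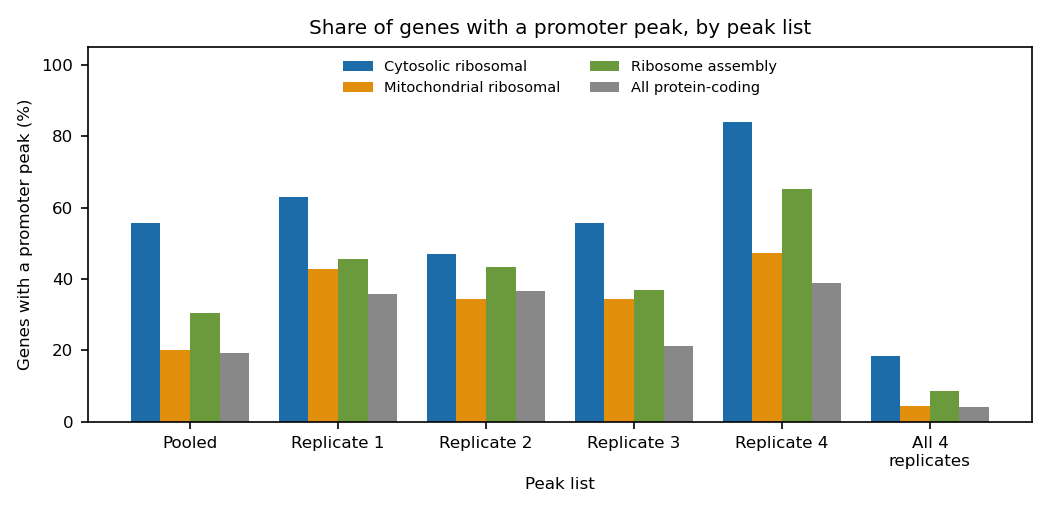
Share of genes with a promoter peak (y axis, percent) in the pooled list, in each replicate list and in all 4 replicate lists, for the cytosolic ribosomal protein genes, 2 comparison lists and all protein-coding genes. The cytosolic ribosomal protein genes are the highest bar in each group, at 55.6% in the pooled list and from 46.9% in replicate 2 to 84.0% in replicate 4.

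The 2 related gene groups were lower than the cytosolic ribosomal protein genes in every list. Mitochondrial ribosomal protein genes, which serve the organelle's own ribosome, had a pooled promoter peak in 14 of 70 (20%), close to the 19.1% of all genes, and genes of ribosome assembly or associated with the ribosome in 14 of 46 (30.4%). None of either group had a reproducible promoter peak. In replicate 2 the shares were 34.3% for the mitochondrial group and 43.5% for the assembly group, next to 46.9% for the cytosolic ribosomal protein genes, so there the 3 groups lay closer together than in the other relaxed lists. The highest pooled ranks of the mitochondrial group were 128 at mrps-28, 697 at mrpl-28, 743 at mrpl-12, 867 at mrpl-45 and 1048 at mrps-10. Those of the assembly group were 136 at nol-10, a nucleolar protein gene, 797 at lpd-6, 1366 at ubl-1, which encodes a small subunit protein fused to a ubiquitin-like domain, 3242 at rpac-19, a subunit of RNA polymerases, and 4108 at wdr-12.

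Among the 3818 genes with a pooled promoter peak, ordered by signal, ribosomal protein genes were 6 of the first 50, 7 of the first 100, 10 of the first 200 and 19 of the first 500, while they make up 1.18% of those 3818 genes and 0.406% of all genes. Their median percentile was 80.6 in the pooled list, beside 56.5 for all genes with a promoter peak there. The same medians were 75.1 and 56.8 in replicate 1, 61.8 and 56.8 in replicate 2, 87.3 and 57.0 in replicate 3, and 77.6 and 59.5 in replicate 4. The difference was again smallest in replicate 2. High rank was not limited to this family: the 14 mitochondrial ribosomal protein genes with a pooled promoter peak had a median percentile of 87.3, with 42.9% of them at percentile 90 or above, beside 42.2% of the 45 cytosolic ones. The assembly genes had a median of 45.8 in the pooled list and of 64.2 in replicate 2, the latter above the 61.8 of the family. The percentiles within the family spread widely, with an interquartile range of 57.0 to 94.4 over the 45 genes in the pooled list.

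**Figure D3:**
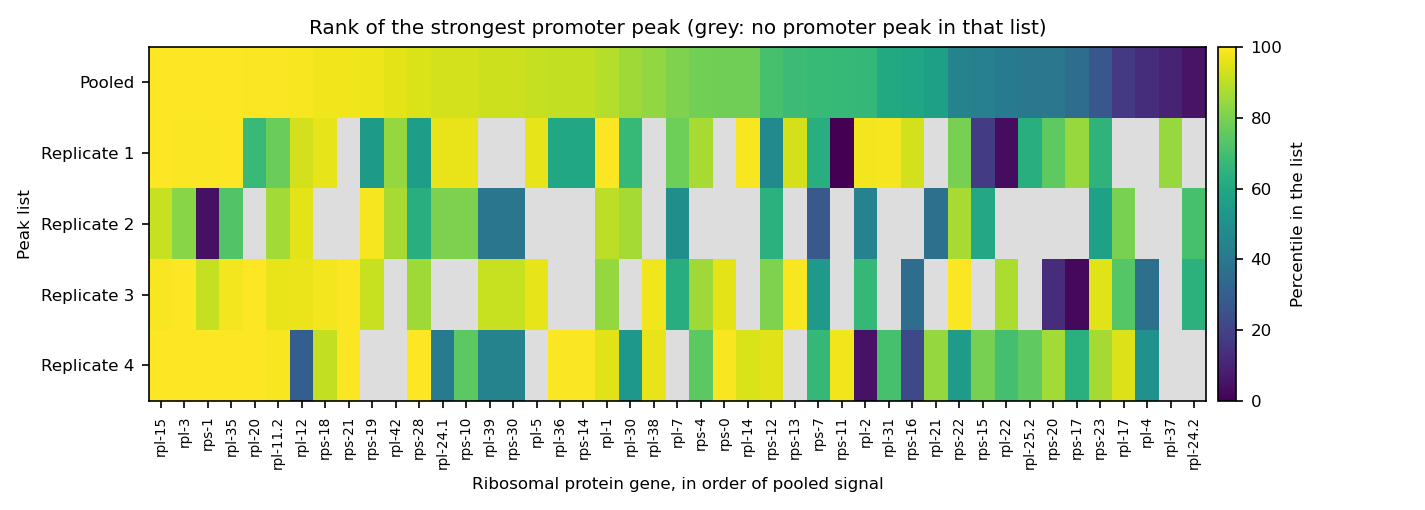
Percentile of the strongest promoter peak (colour, 100 is the strongest peak of a list) for the 45 ribosomal protein genes with a pooled promoter peak, ordered by pooled signal (x axis), in the pooled list and in each replicate (y axis); grey marks no promoter peak in that list. The genes on the left are bright in replicates 1, 3 and 4, replicate 2 has the most grey cells, and to the right the replicates differ from gene to gene.

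After the 6 genes with a reproducible peak, the next was rpl-12, whose protein sits at the base of the stalk that binds translation factors. It ranked 143 in the pooled list and 2099, 1216, 413 and 20699 in replicates 1 to 4, and its summit lay inside the gene, 172 bp downstream of the start, which is 28 bp from the edge of the window. rps-18, of the head of the small subunit, ranked 264 in the pooled list and 1141, 239 and 2732 in replicates 1, 3 and 4. rps-21 ranked 269 and was listed in replicate 3 at rank 86 and in replicate 4 at rank 152, without a promoter peak in replicates 1 and 2. These genes had high ranks in some replicates and a low rank or no promoter peak in others.

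rps-19, a small subunit gene whose human counterpart is mutated in Diamond-Blackfan anaemia, ranked 322 in the pooled list and 13662, 447 and 1136 in replicates 1 to 3. Its replicate 1 peak was another one, 830 bp upstream, while the pooled summit lay 262 bp upstream. The replicate 1 peak that overlapped the pooled one ranked 20009. In replicate 2, rps-19 had the highest rank of any ribosomal protein gene. rpl-42 ranked 516 in the pooled list and 4786 and 3960 in replicates 1 and 2, with no promoter peak in replicates 3 and 4. rps-28 ranked 713 in the pooled list and 13127, 11099, 1904 and 73 in replicates 1 to 4. rps-19 was placed high by replicate 2 and rps-28 by replicate 4, and neither by all.

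Some genes of the family face each other and share 1 region between their starts. There were 3 such head-to-head pairs within 2000 bp, each of a large and a small subunit gene: rps-10 with rpl-24.1 (610 bp apart), rps-14 with rpl-36 (663 bp) and rpl-39 with rps-30 (499 bp). Each pair held 1 pooled peak between the starts, at rank 892, 1166 and 990. The 101 bases around the summits of the latter pairs, shown on the strand of rps-30 and of rpl-36, are printed with the same words in capitals.
rpl-39 and rps-30: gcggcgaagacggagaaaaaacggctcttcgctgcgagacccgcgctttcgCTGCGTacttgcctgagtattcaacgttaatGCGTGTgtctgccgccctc
rps-14 and rpl-36: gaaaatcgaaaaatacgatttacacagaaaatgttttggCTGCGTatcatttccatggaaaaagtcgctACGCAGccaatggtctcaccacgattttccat
The windows lie at chrV:7776282-7776382 (plus strand) and chrIII:7179779-7179879 (plus strand) on ce11. The window between rps-14 and rpl-36 holds the word CTGCGT, 433 bp upstream of the rpl-36 start, and its reverse complement ACGCAG, 403 bp upstream, on either side of the summit. That between rpl-39 and rps-30 holds CTGCGT 1 bp past the summit and GCGTGT further on. Neither window holds TACGGT, and ACGCAG, on either strand, was in none of the 6 windows above.

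In the replicates, the peak between rpl-39 and rps-30 ranked 18213 in replicate 2, 1092 in replicate 3 and 16273 in replicate 4, and none was listed in replicate 1. The peak shared by rps-14 and rpl-36 ranked 12063 in replicate 1 and 222 in replicate 4 and was absent from the lists of replicates 2 and 3. The peak shared by rps-10 and rpl-24.1 ranked 1005 and 5943 in replicates 1 and 2 and 17387 in replicate 4, and none was shared in replicate 3. No pair had its shared peak listed by all 4 replicates. Sharing was common in the family: 29 of its 45 genes with a pooled promoter peak (64.4%) had a peak that lay in another protein-coding gene's window too, beside 910 of 3818 genes (23.8%) in all, and the 45 genes rested on 42 distinct peaks.

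Where 2 genes share a name up to its last digit, the members of the pair differed. rpl-11.2 had a reproducible peak, while rpl-11.1 had no pooled promoter peak and ranked 25621, 16146 and 4716 in replicates 1, 2 and 4. A pooled summit lay 1285 bp upstream of rpl-11.1, outside the window. rpl-24.1 ranked 892 and rpl-24.2 ranked 12142 in the pooled list. rpl-25.2, whose protein lies at the tunnel exit, ranked 7669 while rpl-25.1 had no pooled promoter peak. rpl-41.1 and rpl-41.2, genes for the smallest ribosomal protein, had none in the pooled list, although rpl-41.2 had one in every replicate, at ranks 13280, 13871, 1603 and 3506. The replicate 2 peak of rpl-41.2 was also that of rpl-41.1, with its summit 158 bp downstream of the rpl-41.1 start. In replicate 4, rpl-41.1 had a promoter peak at rank 15214. rpl-7 and rpl-7A, and rpl-36 and rpl-36.A, have similar names: rpl-7 ranked 2488 and rpl-36 ranked 1166 in the pooled list, and rpl-7A and rpl-36.A had no pooled promoter peak. These pairs were formed by name alone, which does not show that their genes are copies, and their sequences were not compared. Where genes do share sequence, reads from it could be placed at either. How the authors treated such reads was not given in the sources used here.

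By subunit, the pooled list held a promoter peak at 25 of 50 large subunit genes (50%) and at 20 of 31 small subunit genes (64.5%), a difference of -14.5 percentage points, large minus small. The same difference was -7.74, 2.84, -19.7 and 0.129 points in replicates 1 to 4. Its sign changed between replicates, so no order of the subunits held across them. The reproducible peaks were at 5 large subunit genes and 1 small subunit gene, rps-1. The stalk proteins rla-0, rla-1 and rla-2, which recruit the factors that drive translation, had no pooled promoter peak, and all 3 were listed in replicate 4, at ranks 4029, 4961 and 25425.

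By chromosome, the pooled shares were 16 of 25 genes on chromosome I, 3 of 10 on II, 12 of 18 on III, 8 of 18 on IV, 5 of 8 on V and 1 of 2 on X. All genes ranged from 17.1% on II to 22.4% on X. The low count on II was not seen in every list: 7 of the 10 genes there had a promoter peak in replicate 1, 1 in replicate 2, 4 in replicate 3 and 7 in replicate 4, beside 35.1%, 34.9%, 20.6% and 36.3% of all genes on II. In replicate 2 the family, at 10%, thus lay below all genes there. Reproducible peaks were at 3 genes on III, 2 on IV and 1 on X, and at none on I, II or V.

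**Figure D4:**
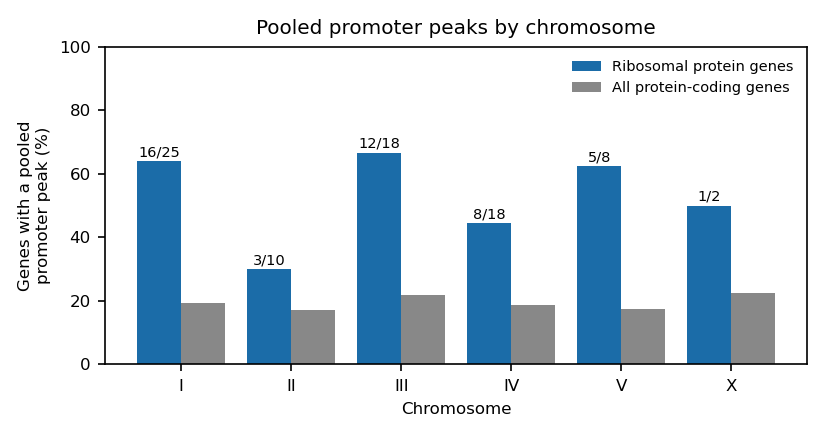
Share of genes with a pooled promoter peak (y axis, percent) on each chromosome (x axis) for the ribosomal protein genes and for all protein-coding genes; the numbers over the bars are ribosomal protein genes with a peak out of those on the chromosome. The family lies above all genes on each chromosome, by the least on II (3 of 10).

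The summits gathered upstream of the start. In the pooled list the median position was 288 bp upstream, and 32 of the 45 genes (71.1%) had their summit 100 to 500 bp upstream, beside 36.6% of all genes with a promoter peak. That share was 47.1%, 42.1%, 73.3% and 55.9% of the ribosomal protein genes in replicates 1 to 4, and 32.4%, 32.3%, 38.0% and 38.4% of all genes. Replicate 3 was the nearest to the pooled list and replicate 2 the farthest from it, with a median of 168.5 bp upstream and 12 of its 38 summits downstream of the start. At the 15 genes listed in all replicates, the summits of a gene spanned a median of 414 bp (607 bp at 847 genes in all), and 3 of the 15 kept within 200 bp (20%, all genes 12.4%).

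Peaks were also denser inside and after these genes. Per Mb of sequence, the 1000 bp upstream of the starts held 543 pooled summits at ribosomal protein genes and 145 at all genes, the gene bodies 270 and 136, and the 1000 bp downstream of the genes 333 and 135. In replicate 4 the values were 1036 and 340 upstream, 810 and 293 in bodies, and 617 and 325 downstream. In replicate 2 they were 395 and 301 upstream, 478 and 326 in bodies, and 506 and 303 downstream. In replicate 1, 629 and 299 upstream stood beside 582 and 330 in bodies, and in replicate 3, 567 and 174 stood beside 249 and 127. Thus summits at ribosomal protein genes were about as dense in bodies as upstream in replicate 1 and denser in bodies in replicate 2, whereas in replicates 3 and 4 and the pooled list they were densest upstream, and the part of this wider density in the promoter counts was not tested.

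**Figure D5:**
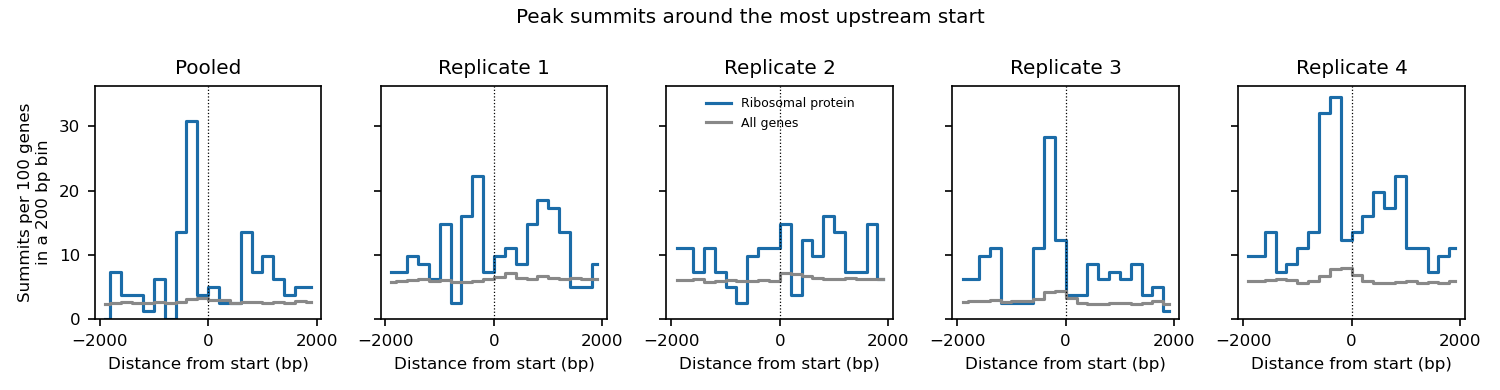
Peak summits per 100 genes in bins of 200 bp (y axis) by distance from the most upstream annotated start (x axis, negative is upstream, to 2000 bp on either side) for ribosomal protein genes and for all genes, in the pooled list and each replicate. A maximum between 200 and 400 bp upstream of the start stands out in the pooled list and in replicates 3 and 4. It is lower in replicate 1. A further rise lies downstream of the start in the pooled list and in replicates 1, 2 and 4. Replicate 2 has no such maximum upstream, and its highest bin lies 800 to 1000 bp downstream.

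Of the 42 distinct pooled promoter peaks of the family, 11 (26.2%) were overlapped by at least 1 bp by a peak of all 4 replicates and 12 (28.6%) by 3, beside 7.99% and 26.1% of the 3806 pooled promoter peaks of all genes. The relaxed lists are long, and an overlap with a low-ranked peak counts here as much as one with a high-ranked peak.

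Some genes were high in 1 replicate and low or absent in the pooled list; they were chosen after their values were seen. rpl-6, a large subunit gene, ranked 35 in replicate 3, 28540 in replicate 2 and 12328 in replicate 4, and had no promoter peak in replicate 1 or in the pooled list. rps-22 ranked 66 in replicate 3, 6120, 3973 and 13363 in replicates 1, 2 and 4, and 7086 in the pooled list. rps-24 ranked 233 in replicate 4, 14604, 10076 and 3551 in replicates 1 to 3, and had no pooled promoter peak. Each of these high ranks came from 1 library, and at each gene a lower-ranked peak of another replicate overlapped that peak.

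The edge of the window touched few members. Just inside it were rpl-12 and rpl-17 (summits 172 and 152 bp downstream) and rpl-1 and rpl-31 (967 and 953 bp upstream). Just outside were rpl-29 and rla-0, with pooled summits 325 and 434 bp downstream of the start at ranks 11805 and 12326, and rpl-11.1 and rpl-32, with summits 1285 and 1289 bp upstream at ranks 10566 and 1172. The window thus left out a pooled peak of high rank at rpl-32. With the window drawn 2000 bp upstream, 53 of 81 genes (65.4%) had a pooled promoter peak, against 29.1% of all genes, and with 500 bp it was 37 (45.7%) against 12.8%.

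The letters under the summits were then counted over the whole family, on both strands and within 50 bp of the summit. The words were chosen with these data known: those other than TACGGT and GTGTAT came from earlier results on these peaks or are SIX-type words, and TACGGT and GTGTAT came from reading the windows printed above, so that their counts in those 6 windows are a description only. Windows of the family had a median of 44.6% G and C, beside 40.6% at all promoter peaks and 35.4% in the nuclear genome. The 500 bp before the starts had a median of 33.8% G and C in the family and 33.8% in all genes. The richer composition was thus that of the summits, 51.5% at the 6 reproducible ones, and not of the promoters as a whole. It was not particular to the family, since the other 32 reproducible promoter peaks of the study had a median of 50.5%.

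TACGGT occurred at 12 of the 42 summits (28.6%), at 7 of the 36 without a reproducible peak (19.4%), and at 3.31% of the 3806 promoter peaks of all genes. Among the other 32 reproducible promoter peaks of the study it occurred at 2 (6.25%). At those 32 peaks, ACGCAG was at 28.1%, ACACGC at 21.9%, GTGTAT at 15.6% and CGTCTC at 28.1%. Each was a higher share than over the 42 summits of the family, of which 36 are without a reproducible peak. At the 6 reproducible summits of the family, ACACGC and GTGTAT were each at 66.7%, and ACGCAG and CGTCTC at 0%. GTGTAT occurred at 4 of the 6 reproducible summits, at 0 of the other 36, and at 4.73% of all. ACACGC was at 7 of 42 (16.7%, all 3.78%), ACGCAG at 7 (16.7%, all 5.70%), CCTGCG at 4 (9.52%, all 2.00%) and CGTCTC at 1 (2.38%, all 6.73%). Matches can share letters, since ACACGC ends with the 4 letters that open ACGCAG, and its reverse complement GCGTGT ends with the 4 letters that open GTGTAT. A SIX-type word, TCAGGTTTC with up to 1 mismatch, was at 2 summits (4.76%, all 2.68%) and TGATAC at 3 (7.14%, all 3.10%), so few of the 42 summits held either.

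TACGGT was also frequent in promoters of the family that had no pooled peak. It lay within 500 bp before the most upstream start in 36 of the 81 genes (44.4%) and in 13.9% of all protein-coding genes. Leaving out the 6 genes whose windows the word was read from, it was in 31 of 75 (41.3%). By pooled peak, it was in 24 of the 45 genes with one (53.3%) and in 12 of the 36 without (33.3%), while among all genes with a pooled promoter peak it was in 15.5%. The 6 genes whose windows the word was read from are all among the 45, so the contrast by pooled peak rests partly on them. It was in 25 of 50 large subunit genes and 11 of 31 small subunit genes (35.5%), and in 15.7% of mitochondrial ribosomal protein genes and 17.4% of the assembly genes. The 37 matches had a median position of 289 bp upstream, with an interquartile range of 223 to 370 bp. The median pooled summit lay 288 bp upstream. The search covered only 500 bp, which bounds the positions of the matches, and positions in all genes were not measured. The matches include those in the windows the word was read from, so these medians are not independent. Nothing is concluded from their closeness. On the strand of the gene, 11 read TACGGT and 26 read ACCGTA. The word thus occurred in promoters of this family with and without a peak, and a match is a run of letters, with no factor shown to bind it.

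The other words were counted in the same way. ACGCAG was in the 500 bp before the start of 17 of the 45 genes with a pooled promoter peak (37.8%) and of 6 of the 36 without (16.7%), beside 12.6% of all genes. ACACGC was in 14 (31.1%) and 4 (11.1%), beside 9.57%. Both words came from earlier results on these peaks, so a higher share in genes with a peak can follow from that choice. GTGTAT was in 10 of all 81 (12.3%), beside 17.5% of all genes, and in 6 of the 75 without a reproducible peak (8%). By pooled peak it was in 13.3% of the 45 with one and 11.1% of the 36 without. The 75 leave out the genes whose windows GTGTAT was read from, and no test was made.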

How the data were processed

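ChIP-seq of UNC-39 in whole L3 larvae of the strain with the tagged copy had been deposited as narrowPeak lists on ce10 and ce11. The ce11 lists were used and the ce10 lists were not. Per the deposited descriptions, each replicate had a relaxed list, and the pooled and thresholded lists came from all 4 replicates with a control, which was not analysed here. Signal values are those the authors deposited and served only for ranks inside 1 list. The deposited q-values were taken to be on the −log10 scale, as is usual for narrowPeak files. Aligner, peak caller and threshold, with versions, were not given in the sources used here, and read depth is unknown.

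Genes and starts came from Ensembl release 115 (WBcel235, the assembly of ce11), and sequence from RefSeq WBcel235; 0 peaks ended beyond a chromosome. A gene's strongest promoter peak was found in each list with Python 3.11.15, pandas 2.3.3 and numpy 2.4.6, and the assignment was tested on simulated peaks. Coordinates are 1-based. No test was run: with 1 group, counts are given beside all protein-coding genes. The comparison lists were mitochondrial ribosomal protein genes by name and 54 names of ribosome assembly or association, 8 of which had no gene. Genes named were those with a reproducible peak and the 15 with the highest pooled signal. Also named were those among the 1000 strongest peaks of at least 3 replicates, similarly named pairs, and up to 5 of each comparison list. Others are said to be chosen later. The members and lists were chosen with earlier results of these data known. Alternatives were other windows, peak thresholds and list lengths, and leaving out each replicate.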

Additional observations from a re-analysis of the deposited data

Results flagged for a closer look

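At 4 of the 6 genes with a reproducible promoter peak, replicate 2 stood apart from the other replicates, by a gap above Dixon's critical share of the range of the 4 values. The percentile in replicate 2 was 91.6 at rpl-15, 82.1 at rpl-3, 72.9 at rpl-35 and 4.32 at rps-1. In replicates 1, 3 and 4 it was 99.8, 99.0 and 99.8 at rpl-15, 99.6, 99.8 and 99.8 at rpl-3, 99.7, 98.3 and 99.6 at rpl-35, and 99.5, 91.1 and 99.9 at rps-1. In all, 11 sets of 4 values were examined, and rpl-20, without a promoter peak in replicate 2, was not among them. Chance flags about 1 in 20 groups where values are normally distributed. Percentiles end at 100 and most values here crowd near that limit, so this rate need not hold. The 4 genes share their libraries, so these are not separate observations.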

How the results depend on the processing

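Of 42 alternative values, 30 stayed close to the reported one and 12 moved; the cause was not tested. The 45 genes with a pooled promoter peak became 3 with a q-value past 0.05 (all genes 0.145%) and 16 among the 1000 strongest nuclear peaks (all genes 2.22%). The 6 genes with a reproducible peak were 2 and 0 among as many of the strongest nuclear peaks of replicates 1 and 2 alone, and 5 in replicate 3 and 5 in replicate 4 (all genes 0.150% to 0.250%; chosen after seeing the data). The 15 genes with a promoter peak in all replicates became 30 with the window at 2000 bp (all genes 10.6%), 5 with the 10000 strongest peaks of each list (all genes 0.911%), and 17 to 25 when 1 replicate was left out (all genes 6.13% to 9.88%), with 25 without replicate 2. The median percentile of 80.6 was 61.8 in replicate 2, and the median summit of 288 bp upstream was 378 bp with the window at 2000 bp. The large minus small difference of -14.5 points was 1.48 with that window, 2.84 in replicate 2 and 0.129 in replicate 4. Ranking by the q-value column left the median percentile at 80.6, and a peak of every replicate overlapping the pooled one was found at 11 genes; both were also chosen after seeing the data. The deposited columns 5 and 8 hold 1 value each, so the planned ranking by them was not run. No paired analysis was possible because there was 1 group.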
